A study of Mus musculus with 6 samples.

Results

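Meiotic prophase and recombination genes build the machinery with which germ cells pair, cut and exchange homologous chromosomes, and their transcripts were followed here in germinal vesicle (GV) oocytes of mice with a truncating mutation of Bnc1. The genes were chosen by name and function, with earlier results of these data known. The list holds 31 genes in 6 roles: the synaptonemal complex, the HORMA domain axis proteins with their remodeller, meiotic cohesin, break formation with strand exchange, crossover formation and meiotic entry. Of these, 30 were among the 17577 genes of the expression tables, and Spo11, which encodes the enzyme that makes meiotic breaks, was not analysed here. Of the 30 genes, 19 averaged 1 FPKM or more across the 6 libraries and were tested, and 11 were below that level.

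All oocytes came from 12-week-old C57BL/6J females that the study's methods describe as primed with pregnant mare serum gonadotropin before antral follicles were punctured. The mutant group, Bnc1tr/tr, was homozygous for a small deletion in Bnc1, which shifts the reading frame and brings a premature stop codon, and basonuclin 1, the protein of this gene, is a zinc finger transcription factor of germ cells and keratinocytes. The allele is constitutive, so the somatic cells around the oocyte carried it too. The control group was wild type (WT), and each group held 3 libraries made with a modified Smart-seq2 procedure, which amplifies polyadenylated RNA, from a single oocyte each by the methods. A figure legend of the study also speaks of 3 biological replicates in each group, run in duplicate. The labels number the libraries 1 to 3 in each group but do not say which animals or how many oocytes they came from. A p value thus measures the spread between these libraries, which may be in part technical.

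Meiotic recombination belongs to early life in female mice. In the fetal ovary, chromosomes are broken on purpose, the broken ends search the homologous chromosome for a template with the help of recombinases, the synaptonemal complex zips the homologs together, and a few of the joined sites mature into crossovers. The oocyte then dismantles the complex and stays arrested in late prophase, with its nucleus visible as the germinal vesicle, until ovulation. During this arrest the crossovers and the cohesin rings laid down in the fetus hold the chromosome pairs together. A transcript found in a GV oocyte is one that the cell still makes or has stored, long after the event its protein is best known for.

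The level unit was FPKM, which divides the fragments of a gene by its transcript length and by the mapped fragments of the library, so levels can be set side by side between genes. Changes are given as log2 fold changes of Bnc1tr/tr over WT computed on log2(FPKM + 1). The added 1 pulls the change of weakly expressed genes towards 0. Each adjusted p is that of limma with Benjamini-Hochberg adjustment over all 10560 genes tested, and a gene was called higher or lower where its adjusted p was under 0.05 and its absolute log2 fold change over 0.5. Oocytes that lost RNA in total and oocytes in which single transcripts changed cannot be told apart by this relative unit.

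The sequence before the transcription start is shown for 7 genes on which the results turn. These are Ccnb1ip1, Trip13, Sycp3 and Hormad1, which were called higher in Bnc1tr/tr, Psmc3ip, which was called lower, and the partners Tex12 and Syce2. Each line gives the 250 bases before the start of a RefSeq transcript (GRCm38.p6), read 5′ to 3′ on the strand of the gene. Capitals mark matches on either strand to the E-box CACGTG, to the E2F-type words GGCGGGAA and GGCGCGAA, and to the STRA8-type word CNCCTCAG, named after factors known to act on germ cell promoters. For Hormad1 the first and for Syce2 the second of their listed starts is shown.
Ccnb1ip1 (chr14:50795729-50795978, minus strand): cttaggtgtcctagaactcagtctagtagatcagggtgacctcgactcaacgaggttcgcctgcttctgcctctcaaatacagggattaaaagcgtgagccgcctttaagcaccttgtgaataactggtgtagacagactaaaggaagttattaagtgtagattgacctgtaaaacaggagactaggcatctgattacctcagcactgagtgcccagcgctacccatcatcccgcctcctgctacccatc
Trip13 (chr13:73937768-73938017, minus strand): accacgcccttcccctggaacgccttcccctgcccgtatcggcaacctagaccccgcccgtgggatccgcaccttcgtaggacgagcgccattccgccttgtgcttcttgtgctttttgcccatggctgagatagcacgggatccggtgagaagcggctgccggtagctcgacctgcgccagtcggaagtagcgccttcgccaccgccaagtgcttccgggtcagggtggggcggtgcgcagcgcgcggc
Sycp3 (chr10:88459337-88459586, plus strand): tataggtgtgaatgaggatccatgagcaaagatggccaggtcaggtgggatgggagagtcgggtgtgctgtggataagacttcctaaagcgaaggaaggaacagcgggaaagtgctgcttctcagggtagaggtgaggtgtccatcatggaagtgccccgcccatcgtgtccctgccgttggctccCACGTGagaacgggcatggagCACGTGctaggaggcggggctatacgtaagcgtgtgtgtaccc
Hormad1 (chr3:95559427-95559676, plus strand): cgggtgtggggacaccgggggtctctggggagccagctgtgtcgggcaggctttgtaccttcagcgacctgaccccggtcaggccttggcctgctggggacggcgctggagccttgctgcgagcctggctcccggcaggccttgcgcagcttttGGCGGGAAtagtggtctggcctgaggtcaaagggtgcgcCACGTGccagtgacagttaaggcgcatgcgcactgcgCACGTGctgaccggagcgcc
Psmc3ip (chr11:101095436-101095685, minus strand): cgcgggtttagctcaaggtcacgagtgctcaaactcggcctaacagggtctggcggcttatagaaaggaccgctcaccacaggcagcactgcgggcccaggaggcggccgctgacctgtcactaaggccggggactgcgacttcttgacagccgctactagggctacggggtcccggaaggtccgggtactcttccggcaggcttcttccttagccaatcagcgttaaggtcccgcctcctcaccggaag
Tex12 (chr9:50561269-50561518, minus strand): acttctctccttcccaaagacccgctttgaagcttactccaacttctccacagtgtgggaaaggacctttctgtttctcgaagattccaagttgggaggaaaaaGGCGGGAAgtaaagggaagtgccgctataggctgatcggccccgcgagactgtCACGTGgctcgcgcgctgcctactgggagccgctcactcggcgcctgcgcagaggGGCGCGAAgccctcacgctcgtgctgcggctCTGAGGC
Syce2 (chr8:84872008-84872257, plus strand): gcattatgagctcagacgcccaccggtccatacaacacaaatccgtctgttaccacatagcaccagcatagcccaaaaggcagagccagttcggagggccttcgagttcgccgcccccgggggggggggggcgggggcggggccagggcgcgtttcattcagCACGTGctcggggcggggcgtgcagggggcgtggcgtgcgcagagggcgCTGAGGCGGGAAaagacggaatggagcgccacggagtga
No match stands before the starts of Ccnb1ip1, Trip13 and Psmc3ip. Hormad1 holds 2 E-boxes and 1 E2F-type word, and Sycp3 holds 2 E-boxes. Tex12 holds 1 E-box and 2 E2F-type words, and a STRA8-type match whose last base lies past the start and is not printed. In Syce2 an E-box precedes a STRA8-type word and an E2F-type word that overlap each other before the second start. The first listed start of Syce2, which is not printed, holds no match to any of these words. Over the 300-base windows of the reference table, which run 50 bases past each start, 27 of the 31 genes had an entry. A gene was counted where any of its listed starts held a match. The E-box was found at 7 of these 27 genes, against 8.09% of all genes in the table. The E2F-type words were found at 6 genes, against 3.1% of all genes, and the STRA8-type word at 6 genes, against 9.12%. These are matches of letters, and binding was not measured.

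The libraries of the groups differed in breadth. The sum of FPKM ran from 657550 to 724550, genes above 0 from 15258 to 15736 in Bnc1tr/tr and from 13896 to 14576 in WT, and the steps of the lowest values put the depth at an estimated 13.3 M to 21.2 M fragments, where 3 fragments per effective kilobase are worth 0.141 to 0.226 FPKM. Among all tested genes 2547 were called higher and 811 lower, a split of 75.8% to the higher side that became 63.3% with upper-quartile scaling, 58.9% with median-ratio scaling and 46.8% with quantile normalization, and the tested genes had a median log2 fold change of 0.15. A change relative to that median is given below for the meiotic prophase genes that were called. Bnc1 itself was listed at 9.04, 6.51 and 5.83 FPKM in Bnc1tr/tr and 13.2, 12.5 and 16.2 FPKM in WT, and was called lower (log2 fold change -0.89, SE 0.20, adjusted p = 0.00895 by limma). All 14 oocyte markers were at 1 FPKM or more in both groups, with summed levels of 16858 to 18235 FPKM in Bnc1tr/tr and 18448 to 20347 FPKM in WT. Markers of other ovarian cells differed between the genotypes, but not all in one direction. Granulosa and cumulus markers (11 of 12 listed) summed to 43.3 to 60.5 FPKM in Bnc1tr/tr against 22.8 to 40.03 FPKM in WT. Higher mutant means were those of Cyp19a1 (35.1 against 23.3 FPKM), Fshr (5.25 against 0.35 FPKM), Nr5a2 (5.45 against 3.72 FPKM), Kitl (2.46 against 1.14 FPKM) and Inhba. Inha (0.693 against 3.42 FPKM), Hsd17b1 and Fst had lower mutant means, but stood at 0.04, 0 and 0.04 FPKM in WT replicate 3. Foxl2, Amhr2 and Inhbb were at or near 0 in all libraries. Surface epithelium markers (6 of 7 listed) summed to 12.4 to 35.6 FPKM against 1.36 to 3.23 FPKM, with Krt18 at 0 in WT, and theca and stroma markers (8 of 11 listed) to 6.53 to 10.3 FPKM against 1.87 to 2.3 FPKM. Immune markers (11 of 11 listed) summed to 61.2 to 139 FPKM against 66.2 to 97.3 FPKM, of which C1qb, the highest, had means of 60.8 against 80.9 FPKM. Ptprc, Lyz2, C1qc and Tyrobp were at 0 in WT and in mutant replicate 3. C1qa, Adgre1, Cd3e and Cd79a were at 0 in WT too, but at 0.61, 0.13, 0.67 and 0.1 FPKM in mutant replicate 3. Endothelial and blood markers (7 of 8 listed) summed to 5.38 to 16.2 FPKM against 10.1 to 11.7 FPKM. Pecam1 (means 4.01 against 9.11 FPKM) and Tek had lower mutant means, and Kdr (0.903 against 0.0967 FPKM) had a higher one. Hba-a1, Hba-a2 and Hbb-bs were at 0 in WT and in mutant replicate 3, and above 0 in mutant replicates 1 and 2. The part of the markers of other ovarian cells in the results below was not tested.

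A range of levels over more than 3 orders of magnitude separated the 30 genes in WT oocytes. Of these, 9 had a WT mean of at least 10 FPKM, 9 lay between 1 and 10 FPKM, 10 lay under 1 FPKM, and Rec8 and Stra8 were at 0 in all 3 WT libraries. Over all 17577 listed genes, 28.1% had a WT mean of at least 10 FPKM and 55.3% had at least 1 FPKM. In Bnc1tr/tr the corresponding numbers were 9, 11 and 10 genes, with none at 0 in all 3 libraries. The order within a role was thus wide, and genes whose proteins form a complex were found at both ends of it.

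**Figure D1:**
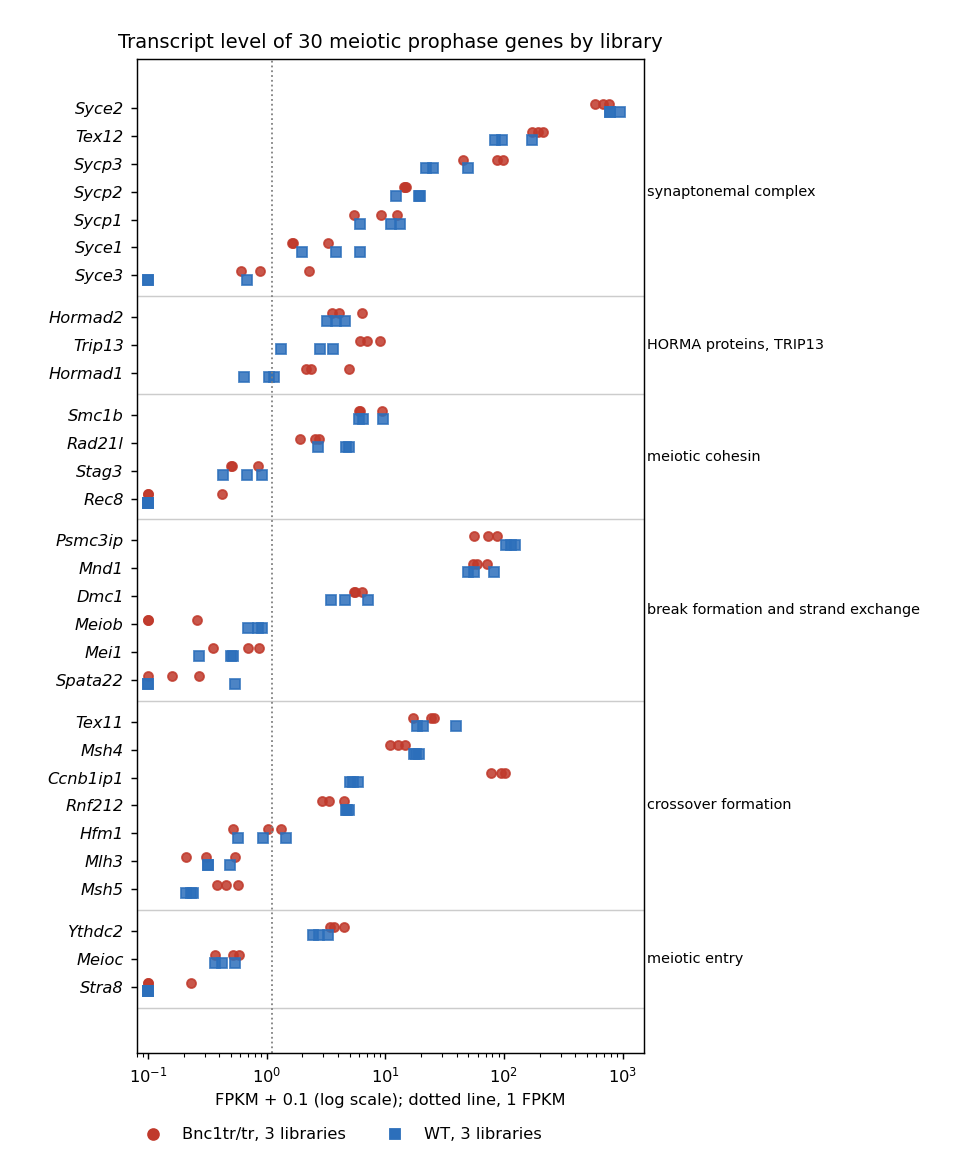
The 30 genes are grouped by role and ordered by WT mean within each role, and each point is the level of one library in FPKM plus 0.1 on a log axis, with circles for Bnc1tr/tr and squares for WT. The points of Ccnb1ip1 lie near 5 FPKM in WT and between 78.4 and 101 FPKM in Bnc1tr/tr, while most other genes overlap or lie close.

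Crossover formation held the largest change of the 19 tested genes. Ccnb1ip1 (NCBI Gene 239083, chr14:50789249-50795728 of GRCm38) encodes HEI10, a RING finger ubiquitin ligase that marks the recombination sites that become crossovers and that interacts with cyclin B. It was listed at 78.4, 95 and 101 FPKM in Bnc1tr/tr libraries 1 to 3 and at 5.77, 5.21 and 4.97 FPKM in WT. Every mutant library lay far above every WT library, and the spread inside each group was small beside the gap. The means were 91.6 ± 11.9 FPKM and 5.32 ± 0.411 FPKM (SD, n = 3 each), a 17.2-fold higher level, and limma gave a log2 fold change of 3.87 (SE 0.17, adjusted p = 2.17e-06). The change was 3.72 above that median over all genes and stood at rank 59 among the 10560 genes ordered from the highest log2 fold change. It passed in 14 of 14 alternatives, with log2 fold changes of 3.66 to 4.08 and adjusted p of 6.7e-07 to 0.00013. Other genes' transcripts hold 1.83% of its 31-base words, and 12.4% of its exon bases overlap Rpph1, a non-coding RNA gene on the same strand. Rpph1 was not listed under this name among the 17577 genes, so the part of this overlap was not tested.

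The 9 tested genes within 250 kb of Ccnb1ip1 had log2 fold changes of -0.48 to 2.08, and 2 of the 9 were called higher, a share close to the 24.1% of all tested genes, and 0 lower. These were Pnp and its neighbouring paralog Pnp2, which encode purine nucleoside phosphorylases and were named after their values were seen. Pnp was listed at 90.0, 76.5 and 87.5 FPKM in Bnc1tr/tr and at 15.1, 20.3 and 22.9 FPKM in WT. The nearest genes on either side, Ttc5 and Parp2, had log2 fold changes of -0.48 and -0.46 and were not called.

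None of the other 3 tested crossover genes was called. Rnf212 encodes a related RING finger protein that stabilises recombination sites. It was listed at 2.82, 4.37 and 3.25 FPKM in Bnc1tr/tr and 4.65, 4.86 and 4.59 FPKM in WT. For it limma gave a log2 fold change of -0.36 (SE 0.18, adjusted p = 0.153). All 3 WT libraries were above all 3 mutant libraries, but the difference was not called. Rnf212 was called lower in 1 of 13 alternatives, quantile normalization (-0.75, adjusted p = 0.0147 by limma). The ratio of Ccnb1ip1 to Rnf212 within a library was 27.8, 21.7 and 31.2 in Bnc1tr/tr and 1.24, 1.07 and 1.08 in WT (exact two-sided permutation p = 0.1, the smallest that 3 against 3 libraries can give). In WT oocytes the levels of both genes were thus close, and in Bnc1tr/tr oocytes they were more than 20 times apart.

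Msh4, whose protein forms a clamp with MSH5 on joined DNA, was listed at 10.8, 14.7 and 12.7 FPKM in Bnc1tr/tr and 17.9, 19.3 and 17.4 FPKM in WT. The WT libraries were all higher, yet with a log2 fold change of -0.49 (SE 0.17, adjusted p = 0.0545 by limma) it was just outside the threshold, and its adjusted p was under 0.05 in 5 of 14 alternatives, among them all 3 rescalings. Its partner Msh5 was far lower, at 0.28, 0.47 and 0.35 FPKM in Bnc1tr/tr and 0.13, 0.14 and 0.11 FPKM in WT, where 3 fragments are worth an estimated 0.053 to 0.0847 FPKM. The Msh5 groups did not overlap either, with the mutant libraries higher, and without the filter on low values limma gave a log2 fold change of 0.28 (SE 0.082, adjusted p = 0.0658).

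Tex11, an X-linked gene whose protein acts with the crossover machinery and is needed for male fertility, was listed at 17, 24.3 and 25.9 FPKM in Bnc1tr/tr and 18.3, 20.8 and 39 FPKM in WT (log2 fold change -0.15, SE 0.29, adjusted p = 0.731 by limma). It was the highest of the crossover genes in WT, and its groups overlapped, with WT replicate 3 above the rest. Hfm1, which encodes a DNA helicase of crossover formation, was at 0.92, 0.42 and 1.23 FPKM in Bnc1tr/tr and 0.47, 1.35 and 0.83 FPKM in WT. Mlh3, whose protein helps to cut crossover intermediates, was at 0.44, 0.11 and 0.21 FPKM and 0.22, 0.39 and 0.22 FPKM. Neither Hfm1 nor Mlh3 reached the mean of 1 FPKM, and both overlapped between the groups. Of the 4 tested crossover genes, 1 was called higher and 0 lower, beside 24.1% called higher and 7.68% called lower among all tested genes.

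Among the HORMA domain axis proteins and their remodeller, Trip13 rose in Bnc1tr/tr. Trip13 (chr13:73912450-73937795) encodes an ATPase that strips HORMA proteins from chromosomes as they synapse and that also recycles the spindle checkpoint protein MAD2. It was listed at 8.93, 6.03 and 6.94 FPKM in Bnc1tr/tr and 2.74, 3.53 and 1.22 FPKM in WT, and the lowest mutant library was above the highest WT library. Trip13 rose by 1.29 on the log2 scale (SE 0.27, adjusted p = 0.00682 by limma), or 1.15 above the median over all genes, with a ratio of means of 2.92. It passed in 13 of 13 alternatives in which it was tested.

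Hormad1 (chr3:95559677-95587863), which encodes the axis protein that recruits checkpoint and break factors to chromosomes that have not synapsed, was lower in level. Its values were 4.88, 2.26 and 2.06 FPKM in Bnc1tr/tr and 0.94, 0.54 and 1.06 FPKM in WT, with no overlap. The WT mean was under 1 FPKM, so the gene was tested only through the group in which it was higher, and its test gives no independent support for a difference. Within that limit it was called higher (log2 fold change 1.08, SE 0.26, adjusted p = 0.0136 by limma, 0.94 relative to the median), but its call was lost under quantile normalization (adjusted p = 0.0777) and without WT replicate 2 (adjusted p = 0.054). Other genes, Gm15529 and Gm7167, share 42.5% of its 31-base words and were not listed under these names, so its level is uncertain where the counting split such reads. Hormad2, its paralog, was at 6.29, 3.47 and 3.98 FPKM in Bnc1tr/tr and 4.48, 3.77 and 3.14 FPKM in WT, overlapped and was not called (log2 fold change 0.19, SE 0.22, adjusted p = 0.541 by limma). Of the 3 genes of this role, 2 were called higher, 1 of them Hormad1, beside 24.1% of all tested genes, and 0 lower.

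The synaptonemal complex held the most abundant transcripts of the list. Syce2, which encodes a central element protein, was at 589, 772 and 688 FPKM in Bnc1tr/tr and 779.8, 779.5 and 956 FPKM in WT, a WT mean above that of 99.3% of all listed genes. The WT libraries were all higher, WT replicates 1 and 2 only slightly above mutant replicate 2, and the gene was not called (log2 fold change -0.30, SE 0.18, adjusted p = 0.239 by limma). Tex12, whose protein joins SYCE2 in the filaments that lengthen the central element, was at 173.8, 213 and 193 FPKM in Bnc1tr/tr and 95.5, 84.7 and 173.5 FPKM in WT. Its groups did not overlap, with WT replicate 3 near the lowest mutant library. Tex12 had a log2 fold change of 0.78 (SE 0.27, adjusted p = 0.0517 by limma), just outside the threshold, and had an adjusted p under 0.05 in 5 of 14 alternatives, for example without WT replicate 3 (1.09, adjusted p = 0.0023).

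Because SYCE2 and TEX12 work as one complex, the ratio of their transcripts was taken within each library. Syce2 over Tex12 was 3.39, 3.62 and 3.56 in Bnc1tr/tr and 8.17, 9.2 and 5.51 in WT (exact two-sided permutation p = 0.1, the smallest possible). The mutant ratios lay within a narrow band, below each WT ratio. A ratio within a library is not moved by the scaling of that library.

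Sycp3 (chr10:88459587-88473236) encodes the lateral element protein on which the chromosome axis is compacted. It was listed at 86.7, 45 and 98.7 FPKM in Bnc1tr/tr and 21.9, 25.4 and 50 FPKM in WT, and mutant replicate 2 lay below WT replicate 3. Sycp3 was called higher (log2 fold change 1.24, SE 0.36, adjusted p = 0.0299 by limma, 1.09 relative to the median). The call was lost in 9 of 14 alternatives, with adjusted p of 0.0505 to 0.104, among them each rescaling and leaving out Bnc1tr/tr replicate 1 (adjusted p = 0.0985), Bnc1tr/tr replicate 3 (0.104), WT replicate 1 (0.0829) or WT replicate 2 (0.0925). Its exons overlap those of Chpt1, a phospholipid synthesis gene on the opposite strand, over 52.2% of their bases, and no strand was marked in these libraries, so reads of the shared part cannot be told apart. Chpt1 was listed at 4.02, 2.27 and 3.24 FPKM in Bnc1tr/tr and 0.81, 0.94 and 1.13 FPKM in WT and was called higher as well (log2 fold change 1.07, SE 0.20, adjusted p = 0.00335 by limma), with a WT mean under 1 FPKM, so that it too was tested only through the mutant libraries.

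The remaining synaptonemal complex genes were not called. Sycp2, the partner of SYCP3 in the lateral element, was at 14.9, 14.5 and 14.1 FPKM in Bnc1tr/tr and 19.4, 19.2 and 12.3 FPKM in WT (log2 fold change -0.19, SE 0.20, adjusted p = 0.524 by limma). Sycp1, the transverse filament that bridges the axes, was at 5.4, 9.02 and 12.4 FPKM and 6.05, 11.1 and 13.1 FPKM (log2 fold change -0.16, SE 0.33, adjusted p = 0.742). In both genes the groups overlapped. Syce1, a central element protein, was at 1.57, 3.2 and 1.54 FPKM in Bnc1tr/tr and 1.89, 3.74 and 5.97 FPKM in WT (log2 fold change -0.60, SE 0.33, adjusted p = 0.197). Its adjusted p by limma was 0.041 without WT replicate 1 (-0.93) and 0.0483 under quantile normalization (-1.01). Syce3, which loads the other central element proteins, was at 2.18, 0.78 and 0.51 FPKM in Bnc1tr/tr and 0, 0 and 0.58 FPKM in WT. For its short transcript 3 fragments are worth 0.543 to 0.869 FPKM, and all values but that of mutant replicate 1 were near or below this. Without the filter on low values Syce3 was not called (log2 fold change 0.81, SE 0.33, adjusted p = 0.151 by limma). Sycp3 over Sycp2, the ratio of the lateral element transcripts, was 5.82, 3.11 and 6.98 in Bnc1tr/tr and 1.13, 1.32 and 4.07 in WT (exact two-sided permutation p = 0.2), and the groups overlapped. Of the 6 tested genes of the complex, 1 was called higher, beside 24.1% of all tested genes, and 0 lower.

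Break formation and strand exchange held the one gene called lower. Psmc3ip (chr11:101092141-101095435) encodes HOP2, which with MND1 helps the recombinase DMC1 to invade the homologous duplex. It was listed at 55.5, 86.8 and 73.5 FPKM in Bnc1tr/tr and 104, 115 and 123 FPKM in WT, and each WT library was above each mutant library. Psmc3ip fell by 0.68 on the log2 scale (SE 0.20, adjusted p = 0.0302 by limma), with a change of -0.82 relative to the median over all genes. The call held in 9 of 14 alternatives and was lost with a pseudocount of 0.1 (adjusted p = 0.0505), without Bnc1tr/tr replicate 1 (0.0978) or 3 (0.0676) and without WT replicate 2 (0.092) or 3 (0.0575). Its exons overlap those of Mlx, a transcription factor gene on the opposite strand, over 21.2% of their bases, and Mlx was listed at 45.8, 34.3 and 46.8 FPKM in Bnc1tr/tr and 37.4, 28.5 and 20.5 FPKM in WT (log2 fold change 0.57, SE 0.24, adjusted p = 0.104 by limma).

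Mnd1, the partner of HOP2, was at 54.6, 71.8 and 59.4 FPKM in Bnc1tr/tr and 49.5, 56.2 and 82.1 FPKM in WT, with groups that overlapped (log2 fold change 0.0086, SE 0.22, adjusted p = 0.98 by limma). The pseudogene Mnd1-ps shares 56.4% of its 31-base words and was not listed under this name. Psmc3ip over Mnd1 was 1.02, 1.21 and 1.24 in Bnc1tr/tr and 2.09, 2.05 and 1.49 in WT (exact two-sided permutation p = 0.1, the smallest possible). In WT the Psmc3ip transcript thus exceeded that of its partner in each library by more than in any mutant library. Dmc1, the meiotic recombinase that both help, was at 5.34, 6.27 and 5.48 FPKM in Bnc1tr/tr and 3.36, 4.45 and 7.09 FPKM in WT, overlapped and was not called (log2 fold change 0.21, SE 0.23, adjusted p = 0.527 by limma).

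**Figure D2:**
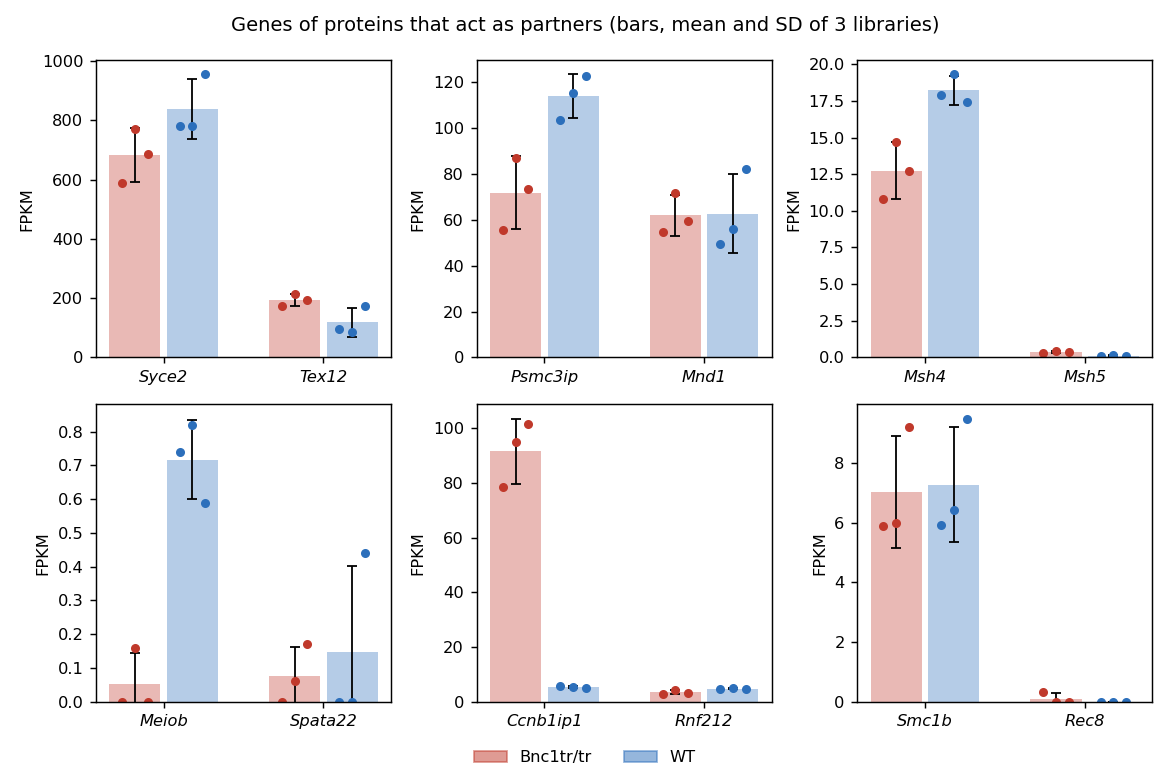
Each panel shows a pair of genes whose proteins act in the same process, with levels in FPKM on axes that start at 0. Bars give the mean and error bars the SD of 3 libraries per group, and points give the libraries. Psmc3ip is lower in Bnc1tr/tr beside an Mnd1 that overlaps, and Ccnb1ip1 is 17.2-fold higher beside a low Rnf212. Msh5 and Rec8 stand near 0 beside their partners, while Meiob and Spata22 are both under 1 FPKM in every library.

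The other genes of this role lay under the filter. Meiob, whose protein binds single-stranded DNA with SPATA22, was listed at 0, 0.16 and 0 FPKM in Bnc1tr/tr and 0.74, 0.82 and 0.59 FPKM in WT, where 3 fragments are worth an estimated 0.0909 to 0.145 FPKM. The groups did not overlap, and all WT libraries were above that limit, while mutant replicates 1 and 3 were listed at 0. Without the filter on low values Meiob was called lower (log2 fold change -0.71, SE 0.10, adjusted p = 0.00685 by limma). Spata22 was at 0, 0.06 and 0.17 FPKM in Bnc1tr/tr and 0, 0 and 0.44 FPKM in WT. Gm49340, a gene on the same strand that was not listed under this name, shares 80.0% of the words of Spata22. Mei1, which is needed for break formation, was at 0.25, 0.76 and 0.6 FPKM in Bnc1tr/tr and 0.17, 0.4 and 0.42 FPKM in WT. Both overlapped. Of the 3 tested genes of this role, 0 were called higher and 1 lower, the latter beside 7.68% of all tested genes.

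Meiotic cohesin, whose rings keep sister chromatids together through the long arrest, had no called gene. Smc1b, the meiotic partner of SMC3, was at 5.91, 5.98 and 9.21 FPKM in Bnc1tr/tr and 5.92, 6.43 and 9.49 FPKM in WT (log2 fold change -0.044, SE 0.23, adjusted p = 0.908 by limma), and the groups covered nearly the same range. Rad21l, which encodes a meiotic kleisin, the subunit that closes the ring, was at 1.81, 2.66 and 2.45 FPKM in Bnc1tr/tr and 4.6, 4.83 and 2.59 FPKM in WT. WT replicate 3 fell among the mutant libraries, and the log2 fold change of -0.57 (SE 0.22, adjusted p = 0.0825 by limma) was not called, although it was called lower with upper-quartile scaling (-0.68, adjusted p = 0.0366), median-ratio scaling (-0.71, 0.0315) and quantile normalization (-0.98, 0.00766), and without WT replicate 3 (-0.80, 0.0112). Stag3, the meiotic stromalin subunit, was at 0.74, 0.4 and 0.41 FPKM in Bnc1tr/tr and 0.58, 0.81 and 0.33 FPKM in WT. Rec8, the kleisin on which sister cohesion in oocytes depends, was above 0 in 1 of 6 libraries, at 0.32 FPKM in mutant replicate 1. Both fell under the filter and were not tested.

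The meiotic entry genes were low. Ythdc2, which encodes an RNA helicase that lets germ cells leave the mitotic programme, was at 3.62, 3.35 and 4.43 FPKM in Bnc1tr/tr and 2.64, 2.36 and 3.18 FPKM in WT. Its mutant libraries were all higher, but it was not called (log2 fold change 0.36, SE 0.17, adjusted p = 0.141 by limma), and under quantile normalization the sign turned (-0.054). Meioc, the partner of YTHDC2, was at 0.42, 0.49 and 0.27 FPKM in Bnc1tr/tr and 0.44, 0.27 and 0.32 FPKM in WT. Stra8, the retinoic acid induced gene of meiotic entry, was listed at 0.13 FPKM in mutant replicate 1 and at 0 in the other 5 libraries.

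Over all roles, 5 of the 19 tested genes were called, 4 higher and 1 lower, and 14 were not. This share of 26.3% stands beside 31.8% of all 10560 genes tested. Among genes whose mean reached 1 FPKM in both groups, which leaves out Hormad1, 4 of 18 were called (3 higher, 1 lower), or 22.2%, beside 26.9% of 9439 genes. For genes called higher the background was 24.1%, and for genes called lower it was 7.68%. The groups did not overlap in 9 of the 19 tested genes, namely Ccnb1ip1, Trip13, Hormad1, Tex12 and Ythdc2 with higher mutant levels and Psmc3ip, Msh4, Rnf212 and Syce2 with higher WT levels, against 46.8% of all tested genes. The shares of the list were thus near those of all genes, and the list was not set apart by its counts. The median log2 fold change of the 19 genes was -0.044, against 0.15 over all tested genes, where it ran from 0.32 for genes of 1 to 3 FPKM down to -0.059 for genes of 100 FPKM or more.

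**Figure D3:**
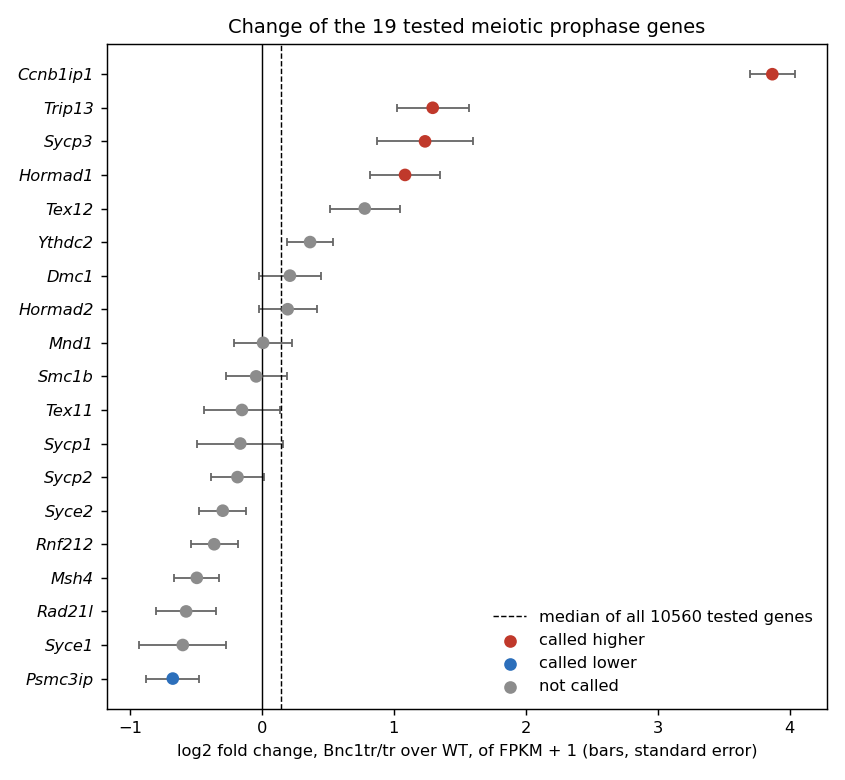
Points give the log2 fold change of Bnc1tr/tr over WT of FPKM + 1 for the 19 tested genes, with bars for the standard error, red for called higher, blue for called lower and grey for not called, and the dashed line is the median of all tested genes at 0.15. Ccnb1ip1 stands apart at 3.87, Trip13, Sycp3 and Hormad1 lie between 1.08 and 1.29, and Psmc3ip is the lowest at -0.68.

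The 10560 tested genes give the scale for these changes. Ranked from the highest log2 fold change, Trip13 was at 1001, Sycp3 at 1070, Hormad1 at 1307 and Tex12 at 2025. Ranked from the lowest, Psmc3ip was at 676, Syce1 at 874 and Rad21l at 941. Changes of the size seen for Trip13 or Psmc3ip were therefore common in this comparison, and those of the size of Ccnb1ip1 were not.

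**Figure D4:**
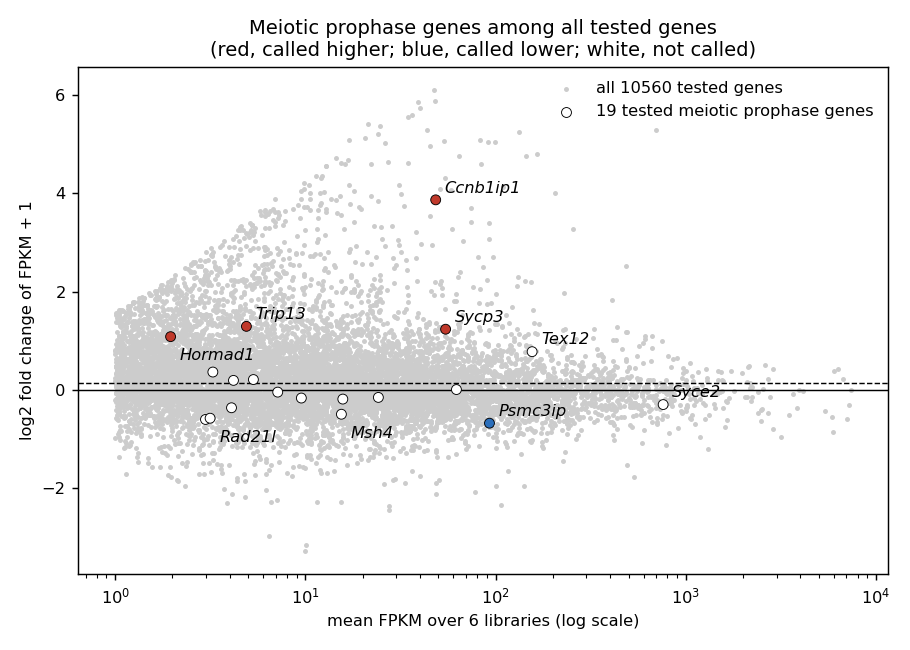
Each grey point is one of the 10560 tested genes by mean FPKM over 6 libraries (log axis) and log2 fold change of FPKM + 1, with larger points for the 19 meiotic prophase genes, the solid line at 0 and the dashed line at the median of 0.15. Ccnb1ip1 lies among the highest points at its level, and the other 18 lie inside the cloud.

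Genes of the same pathways that are not on the list were counted in the same fit. Of 55 such genes, all in the tables, 44 were tested, 8 were called higher, 4 lower and 32 were not called, a share of 27.3% beside the 31.8% of all tested genes. Their median log2 fold change was 0.079. The groups did not overlap in 17 of the 44, against 46.8% of all tested genes. Among the general cohesin genes and their regulators Stag1, Stag2, Pds5a and Esco1 were called higher, and Espl1, which encodes the protease that opens the ring, was called higher too. Pds5a had a WT mean under 1 FPKM and was tested only through the mutant libraries. Without it 7 of 43 were called higher, beside 19% of the 9439 genes whose mean reached 1 FPKM in both groups.

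Cntd1, which encodes a cyclin-like protein that helps to turn recombination sites into crossovers, had the largest rise of this second group. It was listed at 8.29, 6.13 and 6.3 FPKM in Bnc1tr/tr and 2.82, 1.45 and 0.89 FPKM in WT, with no overlap (log2 fold change 1.59, SE 0.26, adjusted p = 0.00188 by limma). Becn1, an autophagy gene on the opposite strand, shares 58.1% of its words and was not called (log2 fold change -0.30, SE 0.23, adjusted p = 0.371). Exons of Becn1 and of Coa3, which is on the opposite strand too, overlap 72.1% of the exon bases of Cntd1. Like Ccnb1ip1, Cntd1 was higher in every mutant library. Kash5 (listed as Ccdc155), which ties telomeres to the dynein motor so that chromosomes move in prophase, fell with 6.74, 6.74 and 4.5 FPKM in Bnc1tr/tr against 14.1, 14.1 and 9.98 FPKM in WT (log2 fold change -0.97, SE 0.21, adjusted p = 0.00789). Mcm9, a helicase of recombination repair, fell with 7.33, 5.86 and 6.23 FPKM against 10.9, 10.9 and 12.7 FPKM (log2 fold change -0.74, SE 0.17, adjusted p = 0.00886). Asf1a, on the opposite strand, overlaps 19.2% of the exon bases of Mcm9.

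Sycp2l, an oocyte paralog of Sycp2, was higher in Bnc1tr/tr while Sycp2 was not called. Sycp2l was at 30.5, 30.1 and 29.8 FPKM in Bnc1tr/tr and 19.4, 16.1 and 11.8 FPKM in WT (log2 fold change 0.92, SE 0.20, adjusted p = 0.00796 by limma). Dazl, which encodes a germ cell RNA-binding protein that promotes translation in oocytes, was among the most abundant, at 452, 416 and 447 FPKM in Bnc1tr/tr and 264, 235 and 237 FPKM in WT (log2 fold change 0.84, SE 0.15, adjusted p = 0.00348). In both genes each mutant library was above each WT library.

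The general cohesin subunits give the setting for the meiotic ones. Smc3, the partner of SMC1B, was at 95.4, 95.5 and 111 FPKM in Bnc1tr/tr and 97.7, 90.9 and 84.3 FPKM in WT and was not called (log2 fold change 0.14, SE 0.16, adjusted p = 0.538 by limma). Rad21, the general kleisin, was at 20.1, 17.9 and 23.7 FPKM and 15.1, 17.1 and 20 FPKM (log2 fold change 0.23, SE 0.18, adjusted p = 0.377). Both exceeded in level the meiotic subunit of their kind in all 6 libraries, Smc3 over Smc1b and Rad21 over Rad21l and Rec8. Stag2, the general stromalin, was called higher, at 7.78, 9.29 and 10.1 FPKM in Bnc1tr/tr and 4.99, 5.15 and 4.15 FPKM in WT (log2 fold change 0.80, SE 0.17, adjusted p = 0.00734), and the call was lost under quantile normalization (adjusted p = 0.0724).

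The calls of the meiotic prophase genes differed in how far they rested on single choices of processing. Ccnb1ip1 and Trip13 were called in each alternative in which they were tested. Hormad1 had an adjusted p under 0.05 in 11 of 13, Psmc3ip in 9 of 14, and Sycp3, Tex12 and Msh4 in 5 of 14 each. Leaving out WT replicate 2 left 2 called genes, Ccnb1ip1 and Trip13, and leaving out Bnc1tr/tr replicate 1 or 3 left 3, those and Hormad1. Over all tested genes these fits called 2390, 2390 and 2592 genes, against 3358 in the main fit.

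**Figure D5:**
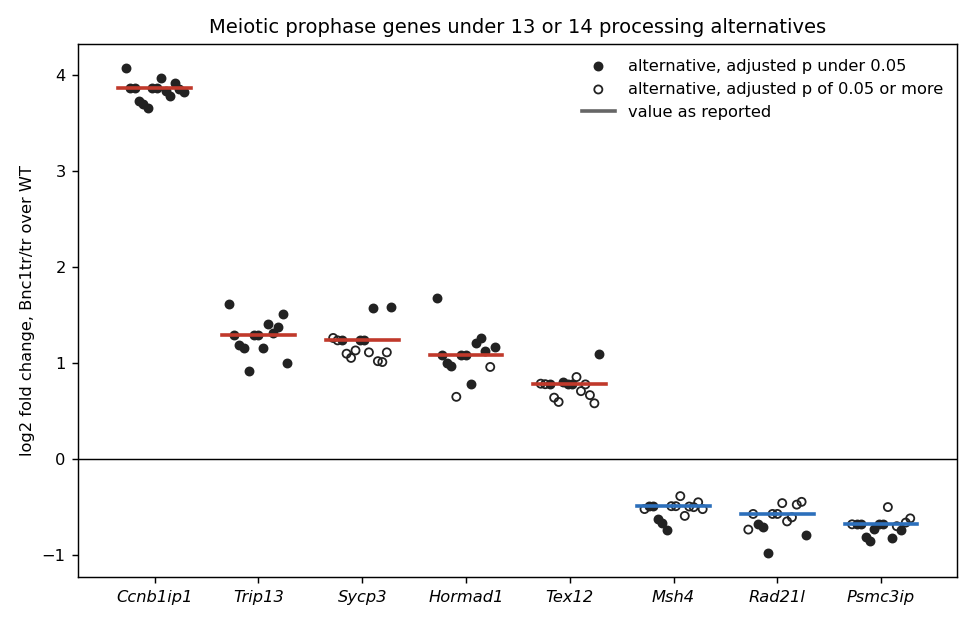
Points give the log2 fold change of 8 genes under each of 13 or 14 alternatives (filled, adjusted p under 0.05; open, 0.05 or more), and the line is the value as reported. All points of Ccnb1ip1 lie between 3.66 and 4.08 and are filled, while Sycp3, Tex12, Msh4, Rad21l and Psmc3ip each have both open and filled points.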

How the data were processed

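Polyadenylated RNA of 6 GV oocyte libraries (3 Bnc1tr/tr, 3 WT, grouped by the genotype in the labels) was amplified by a modified Smart-seq2 procedure without molecular identifiers or strand information. The authors deposited 1 table per library with FPKM of 17577 genes. The submitters' processing notes name HISAT2 2.0.4, Bowtie2 2.2.5, RSEM 1.2.12 and the build GRCm38.p6, and read counts were not used here, so no count model was run.

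Genes averaging 1 FPKM or more were compared on log2(FPKM + 1) with limma 3.58.1 (R 4.3.3), without a covariate, with Benjamini-Hochberg adjustment over 10560 genes. On simulated libraries of these 10560 genes, 91% of 200 genes changed by a log2 fold of 2 were recovered, with 15 false calls. The simulated noise was normal and the filter was off. Of the tested meiotic prophase genes only Ccnb1ip1 changed by that much, and recovery of smaller changes was not measured. Ratios within libraries were compared by exact permutation tests, whose smallest p is 0.1.

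The meiotic prophase genes, related genes, markers and motifs were chosen with earlier results of these data known. All 31 meiotic prophase genes were named whatever their values. Of the related genes the called ones were named, with values for the 3 with the largest change in each direction and for Smc3, Rad21, Stag2 and Sycp2l, except that 2 called genes are not reported here. An estimate of depth came from the spacing of low FPKM values over 943 genes (largest error 0.5% on simulated libraries). The evidence for such steps was weakest in WT replicate 3 (periodicity 4.37, against at most 3.39 with shuffled lengths). Limits from it cover counting error only. Shared 31-base words and exon overlaps came from GENCODE M21, coordinates from RefSeq (GRCm38.p6). Alternatives were another pseudocount, other filters, 3 rescalings, a replicate block, robust variances, other fold thresholds and leaving out each library.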

Additional observations from a re-analysis of the deposited data

How the results depend on the processing

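Main counts were 5 meiotic prophase genes changed (4 higher, 1 lower) and 12 related genes changed (8 higher, 4 lower), and they moved beyond 1.5 times as follows. With a pseudocount of 0.1, 3 meiotic prophase genes were changed and 0 lower, beside 3016 changed and 646 lower of all 10560 tested genes. Without the filter on low values 2 were lower, the second being Meiob, beside 673 of 17574 genes. With upper-quartile scaling 3 meiotic prophase genes and 7 related genes were lower, with median-ratio scaling 3 and 8, and with quantile normalization 5 and 9. In the same order, genes called lower among all tested genes rose from 811 to 1235 of 10544, 1403 of 10535 and 1848 of 10565. Under quantile normalization 8 meiotic prophase genes were changed and 4 related genes were higher. Of all tested genes 3475 were then changed and 1627 higher. With a minimum mean of 5 FPKM 5 related genes were higher, beside 1413 of all 6867 genes then tested. With an absolute log2 fold change over 1, 0 meiotic prophase genes were lower, and 1 related gene was changed (1 higher, 0 lower). Of all 10560 tested genes 1677 were then changed, 1418 higher and 259 lower. Leaving out 1 library gave 2 to 6 meiotic prophase genes changed, 2 to 5 higher and 0 to 2 lower, and 7 to 14 related genes changed, 5 to 9 higher and 2 to 7 lower. Over all tested genes those fits gave 2390 to 3597 changed, 1867 to 2560 higher and 416 to 1037 lower.

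Of 259 alternative values of single meiotic prophase genes, 15 gained the call by both thresholds, 16 lost it and 17 turned sign, the last all in genes that were not called. Msh4 came under an adjusted p of 0.05 in 2 further alternatives without reaching the fold threshold. Mnd1 turned to -0.13 with upper-quartile scaling, -0.17 with median-ratio scaling and -0.047 with quantile normalization, and quantile normalization also turned Hormad2 (-0.19), Dmc1 (-0.16) and Ythdc2 (-0.054). Median-ratio scaling turned Smc3 to -0.041. Leaving out 1 library gave ranges that cross 0 for Mnd1 (-0.14 to 0.22), Sycp1 (-0.46 to 0.12), Smc1b (-0.23 to 0.14), Tex11 (-0.36 to 0.17) and Hormad2 (-0.014 to 0.34).

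An alternative chosen after the data were seen, a mean of at least 1 FPKM in both groups, gave 4 meiotic prophase genes changed and 11 related genes changed. Of all 9439 genes with such means 2537 were changed.

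Whether equal replicate numbers mark pairs of libraries was not settled. The correlations of same-numbered deviations from the group means were 0.278, -0.034 and 0.124. Those of unequal numbers ran from -0.254 to 0.161. The paper states that littermates were compared, but the labels do not say that equal numbers mark a litter. With the replicate block 6 meiotic prophase genes (5 higher, 1 lower) and 14 related genes were changed, against 3733 of all tested genes, and Tex12 came within the threshold (adjusted p = 0.034 by limma). Not every library correlated best with its own number. FPKM carries no counts, amplified cDNA is noisy at low levels, and genes near the worth of 3 fragments could not be compared. The number of libraries limits each test, and the causes of the moves above were not tested beyond the fewer genes or libraries that some alternatives hold by construction.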
